A study of Rattus norvegicus with 9 samples.

Results

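The transcripts described here are those that mark Kupffer cells, the resident macrophages of the liver, together with genes shared by macrophages and other leukocytes. The list held 32 genes, and each was looked up by its exact symbol in the annotation of a one-colour Affymetrix rat array. A probe set, the group of probes that reports a transcript, was found for 25 of the 32 genes, out of 14217 genes with a probe set of a single symbol in the whole series. The 7 genes Vsig4, Timd4, Marco, Siglec1, Slc11a1, Msr1 and Spi1 had no probe set under their symbol and were not analysed here. Where a gene had several probe sets, the one with the highest mean signal stood for it.

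Liver RNA was measured in 9 Wistar rats, labelled male and weighing 180 to 220 g. The groups were named control, model and drug and held 12 animals apiece (36 in all), of which 3 per group were picked at random for the arrays, so every array is 1 animal. The drug group received 7-P, and neither the compound nor the treatment that made the model is given in the sources used here. Whether the drug rats also had the model treatment is likewise not given in the sources used here.

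Kupffer cells line the liver sinusoids and clear particles, old red cells and microbes from portal blood. They depend on signals through the receptor Csf1r, take up ligands through scavenger receptors, and sense antibody-coated targets through Fc receptors that signal via adaptors with an activation motif. When a liver is injured, monocytes can enter and become macrophages as well, and these share many transcripts with the resident cells. In whole liver RNA, more cells of a type and more RNA in each cell cannot be told apart.

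Signals are log2 intensities after quantile normalization, and differences are log2 differences between group means with the standard error (SE) of a limma fit of all 9 arrays. The threshold was 0.05 for limma's p after Benjamini-Hochberg adjustment, which ran over the 18625 tested probe sets. Of the 25 genes, 23 passed the filter on dim probe sets, and the integrin chain Itgam and the membrane protein Ms4a7 lay below it. Before normalization the trimmed mean signal of the arrays ran from 33.6 to 81.1. The ratio of the 3' to the 5' signal of Gapdh, which is higher where less of the 5' end was measured, was 1.52 to 3.14 in control, 4.09 to 12.7 in model and 1.31 to 9.20 in drug arrays. Control 2 and drug 3 stood apart in sex-linked transcripts: their Xist signal was 2.65 and 3.05 against 8.06 to 10.9 in the other 7 arrays, and their Eif2s3y signal, from a Y-linked gene, 6.99 and 7.17 against at most 2.53. All animals were labelled male, so these 2 arrays matched the label in both transcripts and the other 7, all 3 model arrays among them, went against it. The 9 measured hepatocyte markers, among them Alb, Ttr and Apoa1, lay at percentiles 98.1 to 100 of all probe sets in mean signal.

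Most macrophage transcripts had a higher mean signal in the model than in the control livers. The largest median difference of the 4 role groups was that of the Kupffer cell list, of which 4 of 9 genes were measured. Among these 4, Clec4f had the smallest difference, 0.91, and its groups overlapped. The mean was higher in the model group for 19 of the 23 genes that passed the filter, where 51.1% of all probe sets were higher, and the median difference was 0.62 against 0.02 for all probe sets. Over all 25 measured genes, dim ones included, 20 were higher and the median was 0.45. Without normalization 14 of the 23 were higher and their median was 0.16, beside -0.40 over all probe sets. No gene passed in limma after adjustment, and neither did any of the 18625 probe sets, so percent called was 0 for members and background alike. At an unadjusted limma p under 0.05, 6 of the 23 genes were higher (26.1%) and 0 lower, beside 6.51% of all probe sets higher and 5.54% lower. The model arrays lay wholly above the control arrays for 8 of the 23 genes (34.8%), beside 11.8% of all probe sets, and wholly below them for 0, beside 10.9%.

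**Figure D1:**
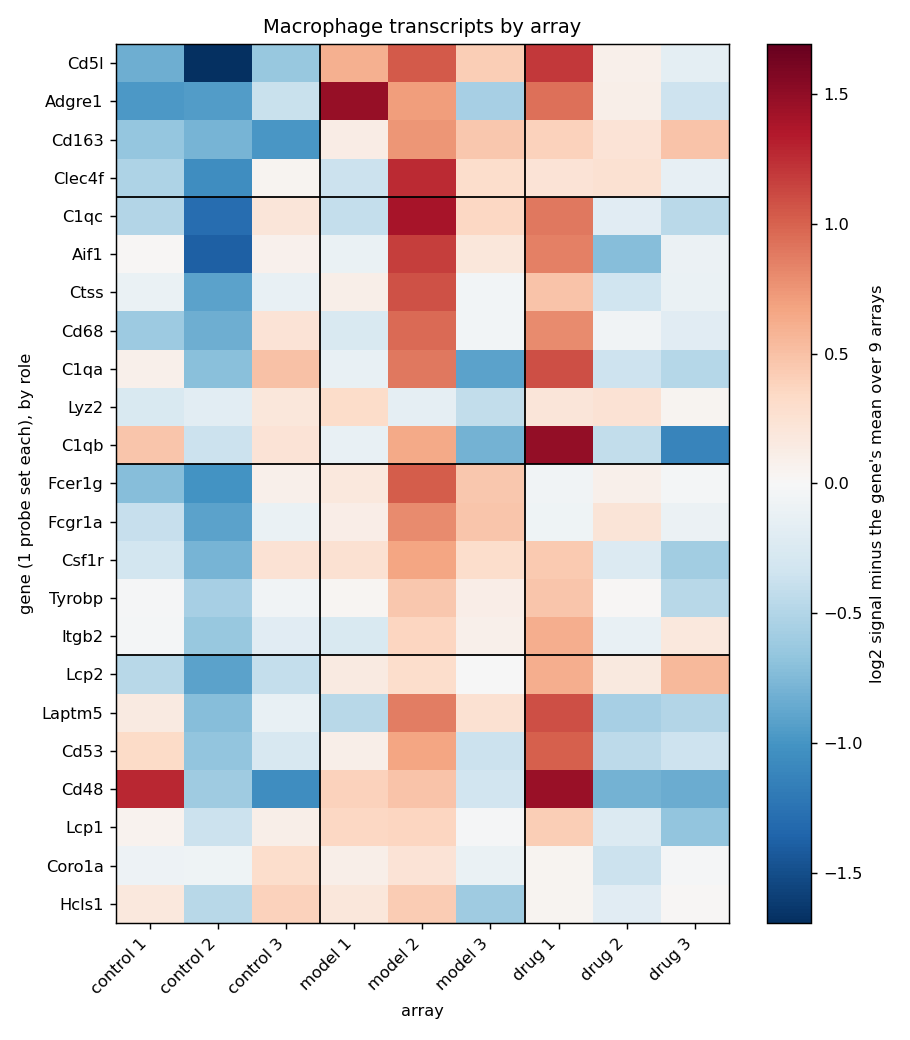
Heat map of the 23 macrophage genes that passed the filter (rows, grouped by role) in the 9 arrays (columns). Colour is the log2 signal minus the gene's mean over all arrays, red above and blue below; control 2 is the lowest array for 14 genes, and model 2 and drug 1 are each the highest for 10.

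The arrays within a group differed widely, as the heat map of the members shows. Control 2 held the lowest value of all 9 arrays for 14 of the 23 genes, and model 2 and drug 1 each held the highest for 10. Model 2 had the highest Gapdh ratio of the 9 arrays, 12.7, and drug 1 the lowest, 1.31. The part of this ratio in the spread was not tested. Averaged over the 23 genes, each centred on its own mean, the level was -0.17, -0.78 and -0.08 in control 1, 2 and 3. The model arrays averaged 0.10, 0.71 and -0.04, and the drug arrays 0.64, -0.16 and -0.24. The model and control arrays did not overlap in this average, while the drug arrays spread over both. Without model 2 the median difference between model and control was 0.29, and without control 2 it was 0.36. With fewer arrays, groups separate more often in all probe sets. Leaving out model 1 gave 13 genes higher without overlap, beside 22.3% of all probe sets, and leaving out control 3 gave 12, beside 17.3%. Control 2 and drug 3 are the arrays whose sex-linked transcripts matched the male label. With control 2 and drug 3 both left out, the median was 0.37, with 18 of 23 genes higher, 3 of them at an unadjusted limma p under 0.05 (4.24% of all probe sets) and 8 without overlap (16.7% of all probe sets).

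The 9 genes listed for Kupffer cell identity had 4 with a probe set, Clec4f, Cd5l, Cd163 and Adgre1, and all 4 had higher means in the model livers, under each of the scalings tried. Their median difference was 1.28, and 0.93 without normalization, beside the -0.40 of all probe sets. Their average level was -0.75, -1.12 and -0.49 in the control arrays. In model livers it stood at 0.46, 0.94 and 0.15, and in drug livers at 0.69, 0.17 and -0.05. Here every model array and every drug array lay above every control array.

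Cd163, the scavenger receptor that takes up haemoglobin bound to haptoglobin, had log2 signals of 4.87, 4.73 and 4.53 in control 1, 2 and 3. The model arrays gave 5.64, 6.27 and 5.98, and the drug arrays 5.91, 5.76 and 6.0. The control livers lay together and apart from the other 6, which overlapped with each other. The means were 4.71 ± 0.17 in control, 5.97 ± 0.31 in model and 5.89 ± 0.13 in drug livers (SD, n = 3). Model exceeded control by 1.25 (SE 0.25), a 2.38-fold signal, with a limma adjusted p of 0.373. Without control 2 and drug 3 the difference was 1.26, and with a term for the Gapdh ratio it was 1.19.

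Cd5l, a protein that macrophages secrete and that binds lipids and IgM, was at 7.12, 6.25 and 7.30 in the control arrays. The model arrays gave 8.55, 8.98 and 8.36, and the drug arrays 9.14, 8.03 and 7.77. Again the control values lay below all others. The difference of model from control, 1.74 (SE 0.40) or 3.34-fold, was the largest of the 23 genes, with a limma adjusted p of 0.373. Leaving out control 2 and drug 3 gave 1.41, the Gapdh term 2.28 and no normalization 1.14. A further Cd5l probe set, at a mean of 1.03, lay below the filter and gave 0.28, and for drug minus model it gave 2.51 where the chosen one gave -0.31.

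Adgre1, the F4/80 adhesion receptor of macrophages, was at 3.70, 3.72 and 4.30 in the control arrays. Model 1, 2 and 3 gave 6.15, 5.39 and 4.12, and the drug arrays 5.60, 4.77 and 4.32. Model 3 lay within the control range, so model and control overlapped. The difference was 1.31 (SE 0.52), with a limma adjusted p of 0.399. It was 0.84 without model 1, 1.97 with the Gapdh term and 1.22 without control 2 and drug 3. Clec4f, the lectin used to mark Kupffer cells in rodents, was at 8.30, 7.77 and 8.87 in control, 8.45, 10.1 and 9.12 in model and 9.05, 9.08 and 8.68 in drug arrays. Model 2 held the highest value, and model 1 lay under control 3. The difference was 0.91 (SE 0.41), with a limma adjusted p of 0.414, and it was 0.18 without normalization, 0.51 with median centring, 0.48 without model 2 and 0.64 without control 2 and drug 3.

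**Figure D2:**
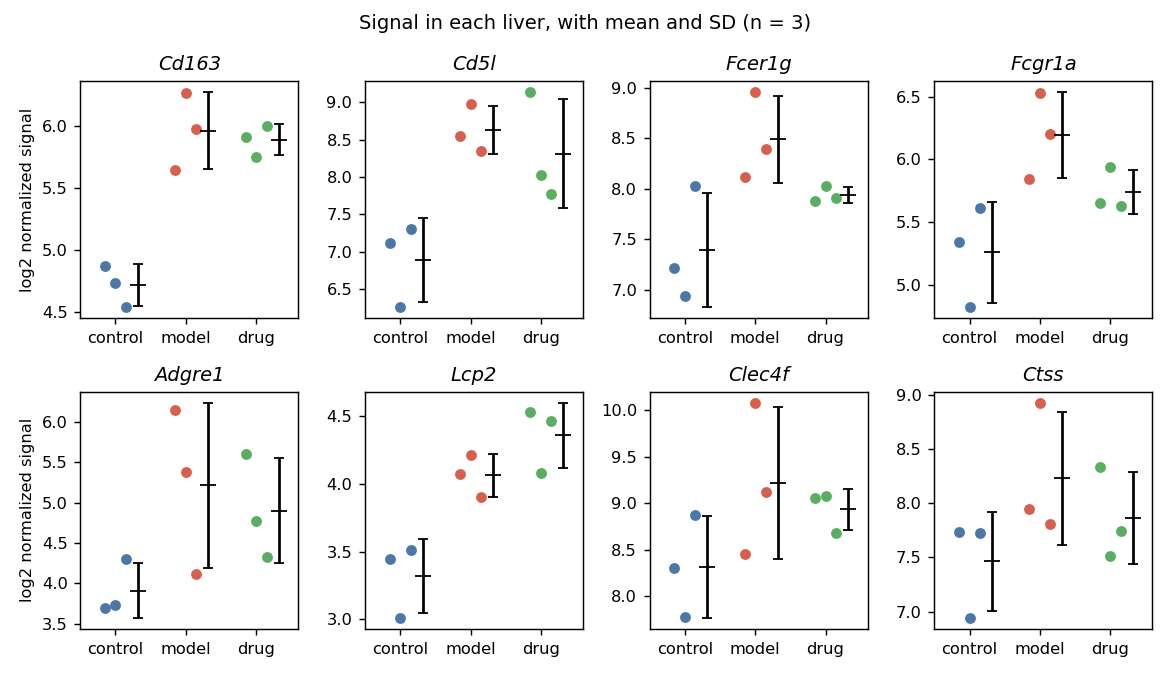
Log2 normalized signal of 8 genes in each liver (points), with the mean and SD of each group beside them (n = 3). For Cd163, Cd5l and Lcp2 every model and drug liver lies above every control liver, while the model livers overlap with control for Adgre1 and Clec4f.

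Sequence upstream of these genes is shown because all 4 had higher means in the model livers, and because the myeloid transcription factor PU.1, encoded by Spi1, acts in macrophages through purine-rich sites. The sequences are the 250 bases before the annotated start, from RefSeq on build GRCr8, given 5' to 3' on the strand of the gene. Capitals mark GAGGAA, or its reverse complement TTCCTC.
Cd5l, chr2:175088665-175088914, plus strand: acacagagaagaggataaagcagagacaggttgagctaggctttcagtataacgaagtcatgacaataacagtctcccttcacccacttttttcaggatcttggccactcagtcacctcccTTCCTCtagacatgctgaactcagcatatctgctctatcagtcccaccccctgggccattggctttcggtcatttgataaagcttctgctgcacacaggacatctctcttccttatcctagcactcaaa
Adgre1, chr9:2329190-2329439, plus strand: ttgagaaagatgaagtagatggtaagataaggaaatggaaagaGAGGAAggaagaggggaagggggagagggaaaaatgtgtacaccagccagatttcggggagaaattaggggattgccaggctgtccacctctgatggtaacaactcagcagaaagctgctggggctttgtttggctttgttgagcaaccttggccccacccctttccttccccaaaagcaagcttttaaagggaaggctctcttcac
Cd163, chr4:158770524-158770773, plus strand: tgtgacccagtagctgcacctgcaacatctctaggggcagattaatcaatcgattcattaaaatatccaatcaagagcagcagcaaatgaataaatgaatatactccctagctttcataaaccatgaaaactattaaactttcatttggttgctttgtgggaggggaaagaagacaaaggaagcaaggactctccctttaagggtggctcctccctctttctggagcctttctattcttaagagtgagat
Clec4f, chr4:117696408-117696657, minus strand: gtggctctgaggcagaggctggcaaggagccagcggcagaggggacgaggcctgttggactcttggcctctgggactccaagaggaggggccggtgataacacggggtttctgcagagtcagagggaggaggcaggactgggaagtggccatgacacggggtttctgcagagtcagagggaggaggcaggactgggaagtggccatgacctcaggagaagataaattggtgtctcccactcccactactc

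The motif GAGGAA was found on either strand upstream of Cd5l, 129 bases before the start, and of Adgre1, 207 bases before it. It was not found upstream of Cd163 or Clec4f within these 250 bases. Upstream sequence was held for 20 of the 32 listed genes, and 11 of these (55.0%) had the motif, against 23.3% of all 33469 sequences of the same length. The 11 were Adgre1, C1qb, Cd53, Cd5l, Cd68, Csf1r, Ctss, Itgam, Laptm5, Lyz2 and Marco. Of the 20 genes 15 had passed the filter, and 9 of these 15 had the motif. Each listed gene was counted with 1 sequence, while the 33469 were not reduced to 1 per gene. The C/EBP motif TTGCNNAA was in 3 of 20 (15%, against 9.22% of all) and TGCTGA, part of the site of MAF factors, in 6 of 20 (30.0%, against 15.1%), both also read on either strand. Each motif was counted on its own, so sites of different motifs may overlap. A match describes the letters and not binding, and the microarray measured transcripts alone.

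Scavenger, lysosomal and complement genes were divided in direction. Of the 9 listed, 8 had a probe set and 7 passed the filter, and 4 of the 7 had a higher mean in the model livers, with a median difference of 0.62, and 0.16 without normalization. The median was 0.36 without control 2, 0.26 without model 2 and 0.37 without control 2 and drug 3. None had an unadjusted limma p under 0.05, beside 6.51% of all probe sets higher and 5.54% lower. Ctss, the lysosomal protease cathepsin S, was at 7.73, 6.94 and 7.72 in control, 7.95, 8.93 and 7.80 in model and 8.33, 7.51 and 7.74 in drug arrays. Its model arrays lay above its control arrays by a narrow gap, and the difference was 0.76 (SE 0.37), with a limma adjusted p of 0.427. It was 0.41 without model 2, 0.49 without control 2, 0.50 without control 2 and drug 3, 0.49 with median centring and 0.16 without normalization.

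Cd68, a lysosomal membrane glycoprotein of phagocytes, differed by 0.62 (SE 0.42) and overlapped between the groups. Aif1, a calcium-binding protein of the macrophage cytoskeleton also called Iba1, differed by 0.84 (SE 0.53). Its other probe set, which was dimmer, gave -0.03, so the probe sets of Aif1 disagreed. Lyz2, the secreted lysozyme of macrophages and neutrophils, was at 8.15, 8.22 and 8.59 in control and 8.71, 8.25 and 7.98 in model arrays, a difference of -0.01 (95% interval -0.55 to 0.53). The dim Ms4a7 had values from 0.90 to 2.99 in model and 1.25 to 3.54 in control arrays, and from -0.43 to 1.01 in drug arrays.

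The 3 chains of C1q, the antibody-binding head of the classical complement pathway, gave different values. They are assembled into the same protein, and in RefSeq their genes lie next to each other on rat chromosome 5 in the order C1qb, C1qc, C1qa. C1qc was at 6.33, 5.54 and 7.03 in control, 6.42, 8.21 and 7.18 in model and 7.71, 6.63 and 6.37 in drug arrays. C1qa was at 7.58, 6.79 and 7.99 in control, 7.38, 8.39 and 6.6 in model and 8.58, 7.15 and 7.02 in drug arrays. C1qb was at 6.54, 5.71 and 6.30, then 5.94, 6.70 and 5.27, then 7.56, 5.65 and 4.95. The chains were alike in being high in model 2 and drug 1, but in model 3 C1qa and C1qb lay below every control array while C1qc lay above every one.

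Model minus control was 0.97 (SE 0.54) for C1qc, 0.00 (SE 0.54) for C1qa and -0.21 (SE 0.61) for C1qb, with limma adjusted p of 0.461, 1.0 and 0.893. The log2 ratio of C1qc to C1qa within an array averaged -1.16 ± 0.17 for the control livers and -0.19 ± 0.77 for the model livers (SD, n = 3). It was 0.97 higher in the model livers, and all model arrays lay above all control arrays, by a margin of -0.963 against -0.965 at the nearest pair (two-sided exact permutation p = 0.1, the lowest value possible with 3 and 3 arrays). In the drug livers the ratio averaged -0.68 ± 0.18 (SD, n = 3), which was 0.48 above control, again without overlap (exact permutation p = 0.1). Adjusted over the 9 tests of the chains, both p-values became 0.45. The ratio of C1qc to C1qb was 1.30 ± 0.74 in model and 0.12 ± 0.53 in control livers (SD, n = 3), with overlap (exact permutation p = 0.2). The ratio of C1qa to C1qb was 1.49 ± 0.18 in model and 1.27 ± 0.37 in control livers (exact permutation p = 0.5, SD, n = 3). These ratios were chosen after the values of the chains had been seen. The Gapdh ratio separated these groups too, at 4.09 or more in model and 3.14 or less in control arrays, and its part in the result was not tested.

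**Figure D3:**
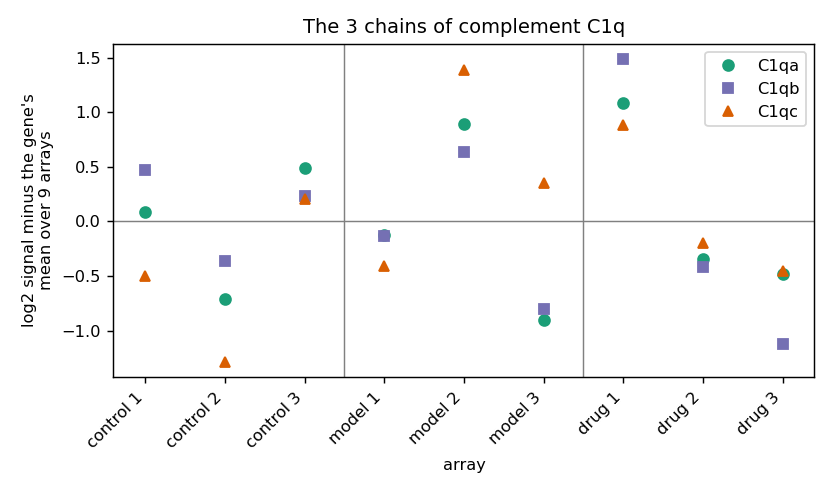
Log2 signal of the C1q chains C1qa, C1qb and C1qc in each array, each gene centred on its own mean over the 9 arrays. In model 3 the C1qc point lies above the line at 0 while C1qa and C1qb lie below it.

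Receptors and adaptors of macrophage signalling had higher means in the model livers. Of 7 listed, 6 had a probe set and 5 passed the filter. Of the 5, 2 were higher at an unadjusted limma p under 0.05, beside 6.51% of all probe sets. All 5 had a higher mean, 4 of them without overlap with control (11.8% of all probe sets). Their median difference was 0.69, and 0.23 without normalization, where 4 of 5 were higher. It was 0.43 without control 2 and 0.44 without control 2 and drug 3. Fcer1g, the signalling chain that Fc receptors share, was at 7.22, 6.93 and 8.03 in control, 8.11, 8.96 and 8.39 in model and 7.88, 8.03 and 7.91 in drug arrays. The drug livers lay close together, below all model livers and overlapping with control. Model exceeded control by 1.10 (SE 0.32), or 2.14-fold, with a limma adjusted p of 0.384. Without normalization it was 0.47, and without control 2 and drug 3 it was 0.86.

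Fcgr1a, the high-affinity receptor for IgG that needs the Fcer1g chain, was at 5.34, 4.82 and 5.62 in control, 5.84, 6.53 and 6.20 in model and 5.65, 5.94 and 5.63 in drug arrays. The model and the drug arrays all lay above the control arrays, the latter by a narrow gap. Its difference of model from control was 0.94 (SE 0.29), with a limma adjusted p of 0.384. It came to 0.55 without normalization and 0.71 without control 2 and drug 3. Csf1r, the receptor for the growth factors Csf1 and Il34, was at 6.15, 5.67 and 6.70 in control, 6.72, 7.13 and 6.75 in model and 6.89, 6.22 and 5.87 in drug arrays. Its model arrays stood above control by 0.69 (SE 0.34), with control 3 only just below model 1.

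Tyrobp, the adaptor DAP12 that serves receptors such as Trem2, differed by 0.41 (SE 0.31), without overlap. Itgb2, the integrin beta chain shared by leukocytes, differed by 0.36 (SE 0.30) and overlapped. Its partner in the macrophage and neutrophil integrin, Itgam, was dim, with values from 0.61 to 3.08 in model and 1.19 to 1.69 in control arrays. The limma adjusted p of Csf1r, Tyrobp and Itgb2 lay at 0.434, 0.562 and 0.602.

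Genes shared by most leukocytes had the smallest median difference of the 4 role groups. All 7 had a probe set that passed the filter, and 6 had a higher mean in the model livers, with a median difference of 0.31. Of the 7, 1 was higher at an unadjusted limma p under 0.05 (14.3%), beside 6.51% of all probe sets. Without normalization 2 of 7 were higher and the median turned to -0.06, above the -0.40 of all probe sets. It was 0.11 without control 2 (also with drug 3 left out), 0.13 without model 2, 0.60 without control 1 and also without control 1 and drug 1. Lcp2, the adaptor SLP-76 of immune receptor signalling, was at 3.44, 3.01 and 3.51 in control, 4.07, 4.22 and 3.90 in model and 4.53, 4.08 and 4.47 in drug arrays. Control lay below the other 6 arrays, and model exceeded it by 0.74 (SE 0.325), with a limma adjusted p of 0.410. It came to 0.41 without normalization and 0.59 without control 2 and drug 3. A dimmer Lcp2 probe set gave 2.05.

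Coro1a, an actin regulator of leukocytes, differed by 0.03 (95% interval -0.51 to 0.57), and Hcls1, a substrate of leukocyte tyrosine kinases, by -0.02 (-0.77 to 0.72). The tetraspanin Cd53, the lysosomal protein Laptm5 and the actin-bundling plastin Lcp1 differed by 0.34, 0.45 and 0.30, each with overlap. Cd48, a ligand of the lymphocyte receptor Cd244, followed another pattern. It was at 5.80, 3.93 and 3.48 in control, 4.92, 5.02 and 4.21 in model and 6.0, 3.74 and 3.70 in drug arrays. Its highest values were in control 1 and drug 1, the arrays with the lowest Gapdh ratios, 1.52 and 1.31, whose part in this was not tested.

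**Figure D4:**
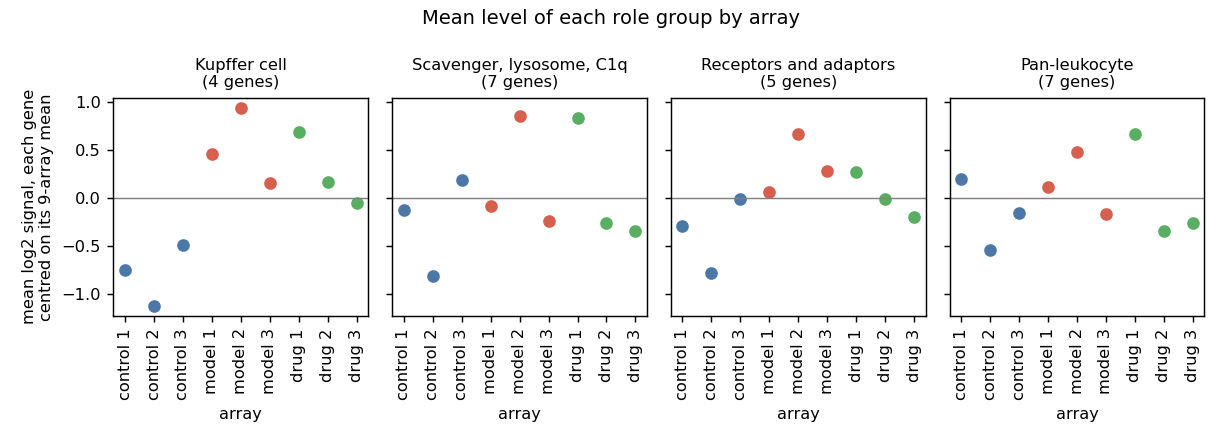
Mean log2 signal of each role group in each array, every gene centred on its 9-array mean (blue control, red model, green drug). In the Kupffer cell group all control arrays lie at or below -0.49 and all others at or above -0.05, while in the pan-leukocyte group the 3 groups overlap.

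Most of these genes had a somewhat lower mean in drug than in model livers, and no difference passed. Of the 23, 18 had a lower mean in the drug group and 5 a higher one, where 47.9% of all probe sets were higher, with a median of -0.21 against -0.02 for all probe sets. In limma 0 passed after adjustment, each with an adjusted p of 0.998, and 0 had an unadjusted p under 0.05 in either direction, beside 1.47% of all probe sets higher and 1.8% lower. No gene was higher without overlap, beside 3.35% of all probe sets. Fcer1g was the 1 of 23 lower without overlap, beside 4.7% of all probe sets, with a difference of -0.55 (SE 0.32), and its groups overlapped without normalization and with median centring. Without drug 1, 8 of 23 were lower without overlap, beside 10% of all probe sets. The means of Csf1r and Fcgr1a were -0.53 and -0.45 from the model means, with overlap.

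For Cd163 the difference of drug from model was -0.08 with a 95% interval from -0.64 to 0.49, and for Cd5l it was -0.31, from -1.20 to 0.58. These intervals include no difference as well as a reduction of the size seen for Fcer1g. The median over the genes turned to 0.08 without model 2, was -0.04 without drug 2, -0.05 without drug 3, -0.34 without model 3, and -0.52 without drug 1. Leaving out control 2 and drug 3 gave -0.04, and leaving out control 1 and drug 1 gave -0.51. With array weights it was -0.62, and 7 of 23 genes were lower at an unadjusted limma p under 0.05, beside 5.49% of all probe sets in that fit. With the Gapdh term it was -0.37.

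The comparison of drug with control livers shares its control arrays with the first comparison and its drug arrays with the second. The drug livers had a higher mean in 19 of 23 genes, where 48.5% of all probe sets were higher, with a median of 0.40 against -0.02 for all probe sets. No gene passed in limma after adjustment, and 3 of 23 were higher at an unadjusted p under 0.05 (13%), beside 4.19% of all probe sets, and 0 were lower, beside 3.03%. They were Cd163 at 1.18 (SE 0.25), Cd5l at 1.42 (SE 0.40) and Lcp2 at 1.04 (SE 0.325), with limma adjusted p of 0.676, 0.676 and 0.677. These 3, Adgre1 (0.99) and Fcgr1a (0.48) were without overlap, 5 of 23 (21.7%) beside 6.05% of all probe sets, and 0 of 23 were lower without overlap, beside 6.49%. For Adgre1 and Fcgr1a the gap was narrow, at 4.32 against 4.305 and 5.629 against 5.615 in drug 3 and control 3. With median centring 4 were higher without overlap, beside 6.49% of all probe sets. The count of genes higher without overlap was 10 with control 3 left out (10.8% of all probe sets), 8 with drug 3 left out (8.67%), 8 with control 2 and drug 3 left out (12.7%), and 0 without normalization (1.18%). The median was 0.13 with control 2 left out, 0.16 with drug 1, 0.17 with control 1 and drug 1, 0.26 with control 2 and drug 3, and it was 0.21 with array weights and 0.04 without normalization.

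**Figure D5:**
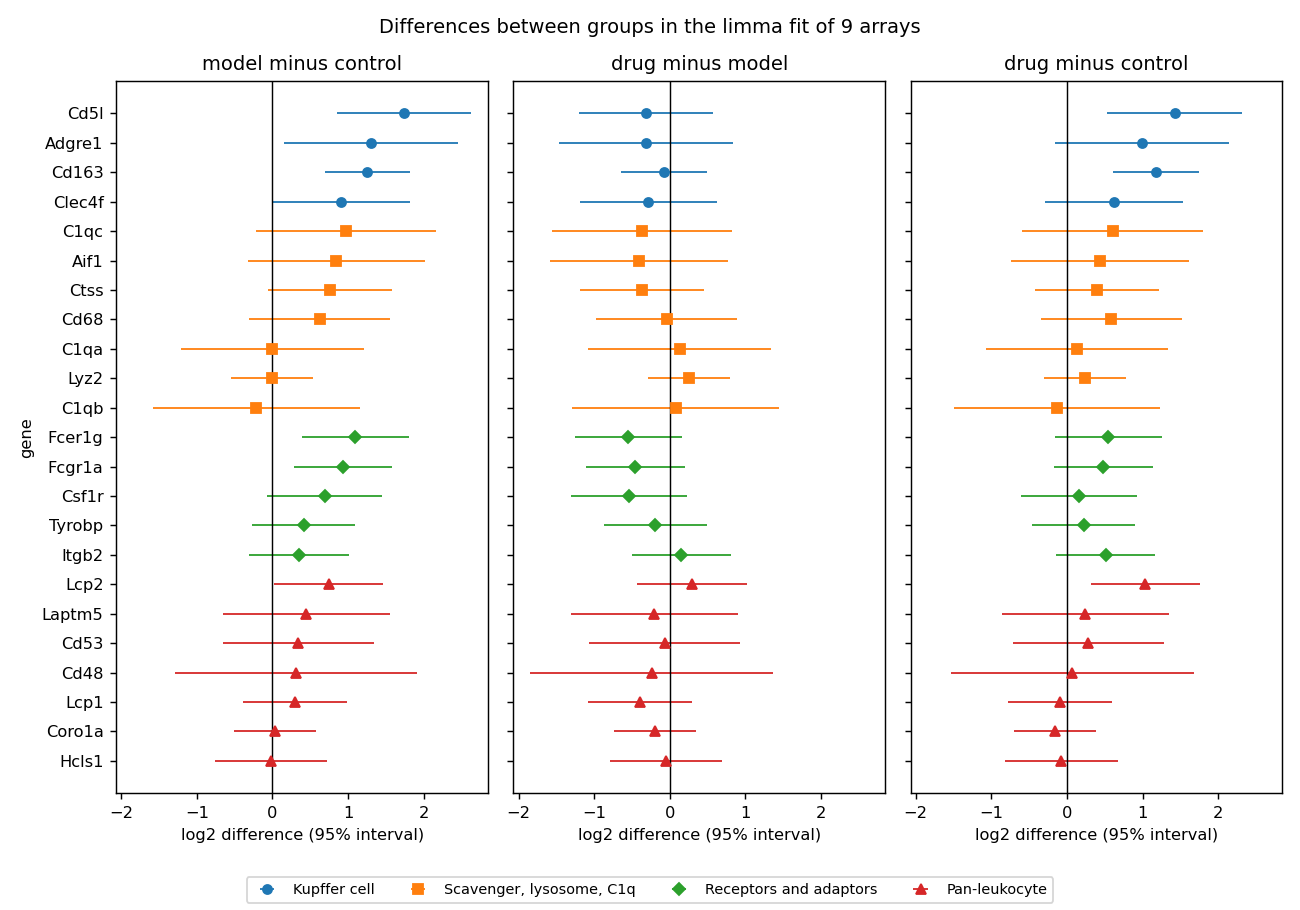
Log2 differences with 95% intervals from the limma fit for the 23 genes in model minus control, drug minus model and drug minus control, marked by role. Cd5l (1.74) and Cd163 (1.25) have the intervals farthest above 0 in model minus control, and in drug minus model every interval crosses 0.

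Genes that act with these receptors or in the same cells were read from lists set up with the members, and none passed in limma after adjustment in model against control. Of 11 measured genes of Fc receptor and activation motif signalling above the filter, 10 had a higher mean in the model livers. Their median was 0.31, and 0.18 without model 1. It turned to -0.09 without normalization, above the -0.40 of all probe sets. Syk, the kinase that binds the phosphorylated adaptor chains, was at 4.0, 4.70 and 4.14 in control, 4.99, 5.36 and 5.16 in model and 5.11, 5.15 and 5.06 in drug arrays. Control lay below all other arrays, and the difference was 0.90 (SE 0.27), with a limma adjusted p of 0.384. It was the single gene of this list with an unadjusted limma p under 0.05, 1 of 11 (9.09%) beside 6.51% of all probe sets higher. The phosphatase Inpp5d, which counters such signals, differed by 0.40 (SE 0.39). Btk, Plcg2, Trem2 and Card9 lay below the filter.

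Of 14 macrophage transcription factors above the filter, 11 had a higher mean in model livers, with a median of 0.37. It turned to -0.15 without normalization, above the -0.40 of all probe sets. At an unadjusted limma p under 0.05, 4 of the 14 were higher (28.6%) and 0 lower, beside 6.51% and 5.54% of all probe sets. Irf8, which directs the monocyte and macrophage lineage, was higher by 0.98 (SE 0.32), and Runx1, a blood cell lineage factor, by 1.95 (SE 0.475), both without overlap and both with a limma adjusted p of 0.384. Without overlap 4 of the 14 were higher (28.6%) and 1 lower, beside 11.8% and 10.9% of all probe sets. The 3 with a lower mean were Maf at -0.27 (SE 0.25), without overlap, and Id3 at -0.66 (SE 0.57) and Irf5 at -0.27 (SE 0.82), with overlap. Spic, a factor of iron-recycling macrophages, lay below the filter. A further list was set up for iron and lipid recycling and clearance of dying cells. It also held other surface proteins, among them Cd14, Folr2, Mrc1, Lilrb4 and Gpnmb. Of its 14 genes above the filter, 12 had a higher mean, with a median of 0.62, and 0.29 without normalization. At an unadjusted limma p under 0.05, 5 of the 14 were higher (35.7%), beside 6.51% of all probe sets. Gas6, a ligand that bridges dying cells to phagocytes, differed by 1.79 (SE 0.35) and its receptor Axl by 1.33 (SE 0.35), both without overlap, with limma adjusted p of 0.373 and 0.384. Without overlap 6 of the 14 were higher (42.9%) and 1 lower, beside 11.8% and 10.9% of all probe sets. The 2 with a lower mean were Cd14 at -0.37 (SE 0.31), without overlap, and Cd36 at -1.36 (SE 1.03), with overlap.

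Growth and recruitment factors had a median difference near 0. Of 9 above the filter, 6 had a higher mean in the model livers and 1 had an unadjusted limma p under 0.05, lower (5.54% of all probe sets). The median of 0.08 turned to -0.47 without normalization, beside -0.40 over all probe sets. It turned to -0.14 with median centring and to -0.42 with the Gapdh term. It was -0.05 without model 1, 0.25 without control 2 (also with drug 3 left out), 0.17 without model 2 and 0.13 without model 3. That gene was Mif, a cytokine that hepatocytes also make, at -1.42 (SE 0.50, limma adjusted p of 0.384). The adhesion molecule Vcam1 differed by 0.79 (SE 0.39). The monocyte attractant Ccl2, its receptor Ccr2 and the chemokine receptor Cx3cr1 lay below the filter.

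Most markers of other blood cells that passed the filter also had higher means in the model livers, and their part in the results on shared genes was not tested. Of 12 neutrophil genes 7 had a probe set and 4 passed the filter, 3 of them higher at an unadjusted limma p under 0.05, beside 6.51% of all probe sets. Among the 3 were S100a9 at 2.83 (SE 0.94) and the receptor Csf3r at 1.66 (SE 0.68), with limma adjusted p of 0.384 and 0.401. The summed neutrophil signal of the 4 ran from 118 to 326 in control, 439 to 2063 in model and 139 to 1483 in drug arrays. Cxcr2, Camp and Mmp9 were dim. The 3 B cell genes above the filter, of 5 measured, were all higher, with Ms4a1 at 1.03 (SE 0.52) and Jchain at 1.23 (SE 0.70), a median of 1.03 (0.65 without model 2), and their sum ran from 106 to 191 in control, 182 to 926 in model and 107 to 490 in drug arrays. Of the 2 below the filter, Cd79b was lower, at -1.59 (SE 0.75), and Cr2 higher, at 0.88 (SE 0.97), both with overlap. Of 12 T and natural killer cell genes above the filter 10 had a higher mean, with a median of 0.46 that was 0.03 without control 2 (also with drug 3 left out), 0.13 without model 2, 0.73 without control 1 (also with drug 1 left out) and 0.74 without control 3. Cd8a was at 1.03 (SE 0.46), and Gzmb, a cytotoxic granule protease, was at -1.57 (SE 0.61). Their sum ran from 141 to 268 in control, 197 to 409 in model and 220.5 to 289 in drug arrays, with Cd4 dim.

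Markers of other liver cells were divided. Without normalization, the median over all probe sets was -0.40 in model against control. Of 10 sinusoidal endothelial genes 5 had a higher mean in model livers, with a median of 0.09 that was -0.24 without normalization and -0.05 without model 1, a sum from 807 to 948.5 in control and 877 to 1269 in model arrays, and Lyve1 at 0.76 (SE 0.35) beside Eng at -0.64 (SE 0.30). Of 9 stellate cell and fibroblast genes above the filter 4 were higher, with a median of -0.17 that was 0.05 with trimmed mean scaling, 0.02 without control 2 and 0.17 without model 3, Col3a1 at 0.81 (SE 0.28) and Col1a2 at -0.77 (SE 0.24), and their sum ran from 417 to 596 in control and 664 to 828 in model arrays. Of 9 hepatocyte genes 5 were higher, with a median of 0.05 that was -0.63 without normalization, -0.30 with median centring and -0.07 with trimmed mean scaling, Ass1 at -1.02 (SE 0.24) and Hnf4a at 0.46 (SE 0.27). The summed hepatocyte signal ran from 34440 to 35060 in control arrays and was 34190, 34420 and 30510 in model 1, 2 and 3. The model and control arrays did not overlap, by a narrow margin of 34440 against 34420 at the nearest pair. The drug arrays, at 33950, 31890 and 32100, also lay below control. Quantile normalization gives every array the same set of values. It therefore limits how far a sum over genes this bright can move. Bile duct and red cell precursor genes had 3 above the filter each, with medians of -0.54 and -0.66 that turned to 0.09 for bile duct genes without model 3 and to 0.04 for red cell precursor genes with the Gapdh term. Spp1 differed by -0.74 and Epcam by -0.54, Alas2 by -1.0 and Slc4a1 by -0.66, each with overlap. Single arrays moved these medians: the bile duct value was -0.26 without control 2 and -0.92 without model 2, and the red cell value was -1.28 without model 1 and -0.02 without model 3. The endothelial value was 0.19 without control 1, 0.04 without control 3, 0.28 without model 2 and 0.25 without model 3, and the stellate value was -0.33 without control 3, -0.27 without model 1 and -0.40 without model 2. The hepatocyte value stayed between -0.07, without control 3, and 0.10, without control 2, and was below 0 without any 1 of the model arrays.

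With the Gapdh term in the fit, the adjusted difference of model from control was above 0 for all 23 macrophage genes. Its median was 0.87, beside -0.01 over all probe sets. These are values adjusted for the ratio and not group means, of which 19 of 23 were higher. The ratio did not overlap between model and control arrays (4.09 or more against 3.14 or less), so the adjusted difference relies on the fitted line between them. Of the 23 genes, 10 were higher at an unadjusted limma p under 0.05. Beside this, 3.67% of all probe sets were higher at that p. The smallest limma adjusted p among the members was then 0.288.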

How the data were processed

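Liver RNA of 9 rats, 3 in each group, was measured on a one-colour array after labelling with biotin, per the labels' protocols. The deposited file holds signal intensities of 31099 probe sets, linear and all above 0. GCOS 1.2 is named in the submitters' processing notes. How it was set and whether it scaled the arrays is not given in the sources used here. Arrays shared no scale, so log2 intensities were quantile normalized, which removes differences in total RNA. After 57 control probe sets were left out, probe sets under the 40th percentile of mean log2 signal (2.82) were dropped, leaving 18625. Limma 3.58.1 in R 4.3.3 fitted all 9 arrays with a term for each group, using lmFit and eBayes with an intensity trend, two-sided. The fit was tested on simulated data.

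Gene names came from the platform annotation: 20826 probe sets had 1 symbol, 436 several and 9780 none. Probe sets with several were not named. No value was an exact 0, and no detection calls were used. Precision is limited by the number of arrays, and permuting 3 against 3 gives no exact p below 0.1. Summed signals add normalized linear signals of a list.

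The members and lists were chosen with earlier results of these data known. Values in every array were given for the 8 members with the smallest unadjusted p in model against control and for the measured Kupffer cell genes, and 2 genes with the smallest p were named from each other list. Other members shown by array (Csf1r, Lyz2, Cd48 and the C1q chains) were chosen after their values were seen. The alternatives were no normalization, median centring, scaling to 1 trimmed mean (2% trimmed at each end), a 60th percentile filter or none, an offset of 1.08 added to the signal, no trend, array weights, the replicate block, a Gapdh ratio term, only the groups compared, averaging each gene's probe sets, each array left out, and 2 pairs of arrays left out.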

Additional observations from a re-analysis of the deposited data

How the results depend on the processing

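In all alternatives run, 0 members passed in limma after adjustment. Across them 8 probe sets passed at least once, none of them a member. In model against control the count was 1 without normalization (Fmo1), 4 with array weights (Fmo1, Slfn9, Siglec5 and Igsf6), 3 with the replicate block (Scd, Thumpd3-as1 and Siglec5), 1 without control 1 and drug 1 (Fmo1) and 0 to 1 with each array left out. In drug against model it was 1 without control 1 and drug 1, 1 with only the groups compared, and 0 to 1 with each array left out, Fmo1 each time. These genes were named after their values were seen.

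The median difference of the members in model against control was 0.16 without normalization and 0.29 to 0.87 in the other alternatives. Genes higher without overlap numbered 8 there (11.8% of all probe sets), but 2 without normalization (1.3%) and 5 with median centring (9.7%). With each array left out they numbered 8 to 13, 13 being without model 1, where 22.3% of all probe sets were so. In drug against control they numbered 5 (6.05% of all probe sets), but 0 without normalization (1.18%) and 8 without control 2 and drug 3 (12.7%). With each array left out they numbered 5 to 10, 10 being without control 3 (10.8%). In drug against model the number higher was 0 (3.35% of all probe sets), and 0 to 1 with each array left out. The difference of model from control stayed above 0 for the 8 members with the smallest unadjusted p in every alternative that tested them. Lcp2 was not tested with the 60th percentile filter. These 8 were picked from the same comparison, so their direction was largely set by that choice. Over all 23 members, 19 were higher in the main fit and 14 without normalization. Array weights gave the lowest adjusted p among the members, 0.0696.

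The labels number the replicates 1 to 3 in each group, but same-numbered arrays deviated together with correlations from -0.01 to 0.48, and not all were over 0.1 in any comparison, so the numbers were not taken as pairs. Of 6 arrays in each comparison, 4, 4 and 2 correlated best with their own number. With the replicate block the probe sets at an unadjusted p under 0.05 were 3633 in place of 2245 in model against control, 1082 in place of 610 in drug against model and 2235 in place of 1345 in drug against control, with no member called. With 3 arrays in a group, small differences in dim probe sets could not be measured.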
